A study of Mus musculus with 12 samples.

Results

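The data below cover 10 genes that FOXO transcription factors are known to regulate and whose products restrain, or feed back on, PI3K, mTOR, glucose uptake and stress signalling. They are Pik3ip1, Irs2, Insr, Trp53inp1, Sesn1, Sesn3, Txnip, Cited2, Klf6 and Rictor, taken by name. All 28 probe sets that the platform annotation assigns to them were read, of 45101 on the array, and the 10 genes stand among 18194 that the annotation names. RNA was measured on 12 Affymetrix mouse arrays in BL#19, a murine line of Burkitt lymphoma, a cancer of germinal center B cells, whose Foxo1 alleles had been edited with CRISPR/Cas9. The labels name this line and tumour, although 1 description field speaks of mouse germinal center B cells. One allele is wild type (wt) and the other carries the substitution T24P (mt), at residue 24 of the protein. The 4 genotypes, with 3 arrays each, were a knockout of both alleles (wt-/mt-), a knockout of the wild-type allele with T24P kept (wt-/mt+), a knockout of the T24P allele with the wild-type allele kept (wt+/mt-), and both alleles present (wt+/mt+). Every genotype comes from this 1 line, wt+/mt+ carries T24P as well, and the labels name no treatment or time point. A genotype may be 1 clone: separate clones or cultures are not recorded in the labels, and p-values here cover the variation among the arrays alone, some or all of which may be technical.

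FOXO1 sits at the end of the PI3K and AKT pathway: AKT phosphorylates it, threonine 24 being a target residue, and the phosphorylated protein leaves the nucleus and stops activating its genes. Substitution of that threonine removes the site. In many cell types nuclear FOXO proteins raise the transcription of genes that act back on the same pathway, some at its receptor end (Insr, Irs2), some as brakes (Pik3ip1, the sestrins, Txnip), and Rictor, a subunit of the mTOR complex that phosphorylates AKT. Germinal center B cells and the lymphomas that arise from them depend on PI3K signals from the B cell receptor. Whether this loop acts in the cells studied here was not tested, since only RNA was measured.

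The edited gene was read first. The brightest Foxo1 probe set had log2 levels of 10.23, 9.39 and 10.34 on wt-/mt- arrays, 11.57, 11.16 and 11.64 on wt-/mt+ arrays, and 12.10, 11.92 and 11.59 on wt+/mt- arrays, against 11.56, 11.63 and 11.72 on wt+/mt+ arrays. RNA of the gene was thus lower on each wt-/mt- array than on every other array, and the 3 genotypes with an allele overlapped. Loss of both alleles changed the level by -1.65 (SE 0.27, limma adjusted p = 0.00287), so transcript was still measured in the knockout. Whether the probes lie inside the edited sequence was not tested. The related factors did not pass the test in that comparison, with differences of -0.57 (adjusted p = 0.254) for Foxo3 and 0.03 (adjusted p = 0.953) for Foxo4.

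Some arrays stood apart from the rest. The median SD over the 22518 tested probe sets was 0.27 among wt-/mt- arrays, 0.12 among wt-/mt+ arrays and 0.14 among wt+/mt- arrays, against 0.10 among wt+/mt+ arrays, and each genotype was given its own weight in the fit for this reason. Replicates 1 and 2 of wt+/mt- had differences of 2.17 and 1.71 (log2) between the 3' and 5' probe sets of actin, a sign of RNA quality, against 1.06 to 1.29 on the other 10 arrays. The spiked control bioD lay at 11.33 to 11.93 on the 6 arrays without the T24P allele, against 12.33 to 12.58 on the 6 arrays with it, so comparisons across that allele also compare arrays with different spike signals, and these cannot be told apart. All 9 B cell markers found on the array and 6 of 7 of germinal center B cells lay above the median probe set, the B cell markers with a median level of 11.39 on wt-/mt- arrays, 12.35 on wt-/mt+ arrays and 12.51 on wt+/mt- arrays, against 12.47 on wt+/mt+ arrays. Of these 9, 5 were called lower after loss of both alleles, among them Blk (-1.87), Ighm (-1.14), Cd72 (-1.08) and Cd79b (-0.96). Of all tested probe sets 5.8% were called lower in that comparison and 2.51% higher. Of the 6 tested germinal center markers Mybl1 (-2.08) and Bcl6 (-0.70) were called lower and Mef2b higher (2.16), and of the 4 tested plasma cell markers Xbp1 was called lower (-1.33). Mybl1 read 10.78, 8.63 and 6.79 on wt-/mt- arrays, the first within the range of the wt+/mt+ arrays. Among markers of other cells, 3 of 7 of T cells, 2 of 5 of NK cells, 3 of 9 of myeloid cells, 3 of 8 of stroma and 1 of 4 of erythroid cells lay above the median. The summed myeloid level was 9.28 to 10.06 on wt-/mt- arrays, 8.87 to 9.06 on wt-/mt+ arrays and 9.19 to 9.51 on wt+/mt- arrays, against 8.99 to 9.15 on wt+/mt+ arrays, and limma called 0 of its 3 tested genes after loss of both alleles, 1 of them having an unadjusted p under 0.05. Such a p was found for 5668 of all 22518 tested probe sets. Of the myeloid markers Cd68 was called higher in wt-/mt- than in wt-/mt+ (2.31) and lower in wt-/mt+ than in wt+/mt- (-1.45), and the NK cell marker Klrd1 was also lower in wt-/mt+ than in wt+/mt- (-1.66). The germinal center marker Lmo2 was called in both comparisons too, higher in wt-/mt- than in wt-/mt+ and lower in wt-/mt+ than in wt+/mt- (-1.36). The part of these differences in the results below was not tested, and on whole cultures fewer cells that express a gene and less RNA per cell cannot be told apart.

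Loss of both Foxo1 alleles lowered 5 of the 9 genes that could be tested, Pik3ip1, Irs2, Trp53inp1, Sesn1 and Rictor, and raised none of them. Of all 22518 tested probe sets 5.8% were called lower in this comparison, where a call is a limma p adjusted by Benjamini-Hochberg of under 0.05. The genes were chosen with earlier results of these data known, so their count is a description and no independent support. Levels of Pik3ip1, which binds and inhibits the PI3K catalytic subunit, were 10.3-fold lower in wt-/mt- than in wt+/mt+ cells. Trp53inp1, a p53-inducible promoter of autophagy, was 6.87-fold lower, Irs2, the adaptor that links insulin and IGF1 receptors to PI3K, 3.09-fold, and Sesn1, an inhibitor of mTORC1, 2.96-fold. Rictor was 1.51-fold lower, a call kept in 9 of 21 alternative settings. Sesn3, Txnip, Cited2 and Klf6 did not pass the test, and Insr lay below the level at which probe sets were tested. The median difference over the 9 genes, each read by its brightest probe set, was -0.59, beside 0.02 over all tested probe sets. Arrays of wt-/mt- lay wholly below those of wt+/mt+ for 5 of the 9 genes, the same 5, beside 17.3% of all tested probe sets. With a single allele left, whichever it was, most of the 10 genes stayed near their wt+/mt+ levels, as the plot of levels by array shows.

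**Figure D1:**
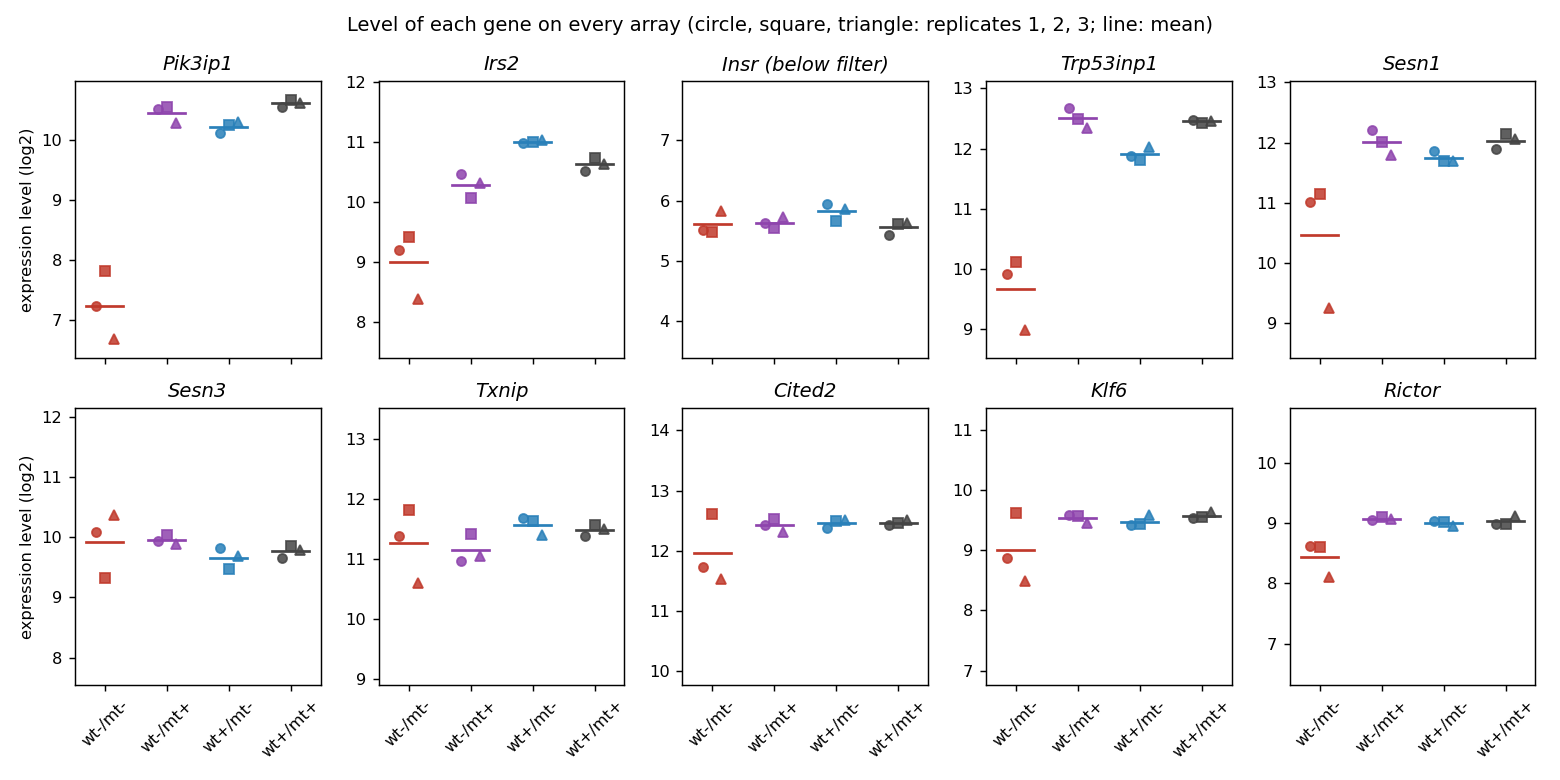
Expression level (log2, y axis) of the brightest probe set of each of the 10 genes on every array, by genotype (x axis), with circles, squares and triangles for replicates 1, 2 and 3 and a line at the mean of 3 arrays. The 3 wt-/mt- arrays of Pik3ip1 lie between 6.69 and 7.82, and the other 9 arrays between 10.11 and 10.67, while the wt-/mt- arrays of Sesn3 and Txnip overlap those of the other genotypes.

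The promoters of 4 genes are shown because 3 of them, Pik3ip1, Irs2 and Sesn1, fell together after loss of both alleles, while the fourth, Txnip, holds a FOXO core motif and did not pass the test. The windows surround the annotated transcript starts and come from RefSeq on mouse build GRCm38.p6. Entries were found for 8 of the 10 genes, with 9 windows in all, and Insr and Trp53inp1 had none in the table used. The motifs searched on both strands were GTAAACA, the core of the element bound by FOXO proteins, CAAAACAA, the insulin response sequence, and CACGTG, the E-box bound by factors such as MYC and ChREBP. The first and second are in capitals below, in the letters of the printed strand.
Pik3ip1, chr11:3330481-3330780, plus strand: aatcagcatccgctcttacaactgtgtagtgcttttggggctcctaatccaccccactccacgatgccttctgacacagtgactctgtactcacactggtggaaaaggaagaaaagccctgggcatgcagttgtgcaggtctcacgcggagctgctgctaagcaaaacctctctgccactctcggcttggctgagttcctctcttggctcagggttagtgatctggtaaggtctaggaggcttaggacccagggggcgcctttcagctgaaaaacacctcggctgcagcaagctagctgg
Irs2, chr8:11008880-11009179, minus strand: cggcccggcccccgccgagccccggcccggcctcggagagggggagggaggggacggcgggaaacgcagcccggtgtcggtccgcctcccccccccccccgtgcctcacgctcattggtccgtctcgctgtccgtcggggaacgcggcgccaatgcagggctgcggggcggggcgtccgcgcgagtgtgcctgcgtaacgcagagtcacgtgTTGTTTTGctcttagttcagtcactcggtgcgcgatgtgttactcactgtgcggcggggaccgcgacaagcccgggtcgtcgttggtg
Sesn1, chr10:41810324-41810623, plus strand: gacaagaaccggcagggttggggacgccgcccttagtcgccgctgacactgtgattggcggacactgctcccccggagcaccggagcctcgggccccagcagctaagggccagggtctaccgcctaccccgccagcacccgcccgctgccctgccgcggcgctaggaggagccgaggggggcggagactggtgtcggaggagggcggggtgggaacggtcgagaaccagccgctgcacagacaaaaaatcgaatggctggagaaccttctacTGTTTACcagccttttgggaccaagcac
Txnip, chr3:96557707-96558006, plus strand: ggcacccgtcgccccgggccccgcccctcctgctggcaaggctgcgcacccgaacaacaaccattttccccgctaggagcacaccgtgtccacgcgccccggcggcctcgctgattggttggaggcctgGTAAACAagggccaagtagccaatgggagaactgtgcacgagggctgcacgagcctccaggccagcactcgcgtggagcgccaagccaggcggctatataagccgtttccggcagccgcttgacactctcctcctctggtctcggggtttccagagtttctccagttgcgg

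In the Irs2 window the insulin response sequence lies on the opposite strand, as TTGTTTTG, from position -38 to -31 relative to the start, directly after an E-box at -44 to -39. The first of 2 Sesn1 windows carries the FOXO core on the opposite strand from position 23 to 29 after the start, and the Txnip window carries it from -121 to -115. None of the 3 motifs was found in the letters of the Pik3ip1 window, whose gene had the largest change of the 10. Klf6 (-43 to -38) and Cited2 (-153 to -148) hold an E-box only, and Sesn3, Rictor and the other Sesn1 window hold none of these letters. Thus 2 of 8 genes hold GTAAACA, 1 holds CAAAACAA and 3 hold CACGTG, where 4.05%, 2.88% and 8.09% of 27025 genes in the table do, and 3.65%, 2.51% and 7.15% of its 32851 windows. A match is a run of letters and not a bound site.

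Pik3ip1 encodes a transmembrane protein that binds the catalytic subunit and lowers PI3K activity. Its brightest probe set, 1428332_at on chromosome 11, read 7.24, 7.82 and 6.69 on wt-/mt- arrays, 10.52, 10.54 and 10.28 on wt-/mt+ arrays, and 10.11, 10.24 and 10.30 on wt+/mt- arrays, against 10.55, 10.67 and 10.61 on wt+/mt+ arrays. All 3 arrays without an allele were low, by more than the whole spread of the other 9. The difference of wt-/mt- from wt+/mt+ was -3.36 (SE 0.22, 95% interval -3.83 to -2.89, adjusted p = 1.84e-05). Against wt-/mt+ it was -3.20 (SE 0.22, adjusted p = 1.97e-05), and against wt+/mt- it was -2.97 (SE 0.23, adjusted p = 0.000125). The second probe set, 1439087_a_at, gave -3.19, -2.91 and -2.57 in the same order, each called, so both probe sets of the gene fell.

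With T24P lost and the wild-type allele kept, Pik3ip1 was at 10.22 ± 0.10 in wt+/mt-, against 10.61 ± 0.06 in wt+/mt+ (SD, n = 3 each). The arrays did not overlap, as for 4 of the 9 tested genes, and the share over all tested probe sets was not computed. The difference of -0.39 (SE 0.12, limma adjusted p = 0.0745) did not pass the test, while that of the second probe set, -0.62 (SE 0.17, adjusted p = 0.0455), did. With the wild-type allele lost and T24P kept, the brightest probe set differed from wt+/mt+ by -0.16 (95% interval -0.39 to 0.07, adjusted p = 0.536).

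Irs2 is an adaptor phosphorylated by the insulin and IGF1 receptors, on which PI3K docks. Its only probe set, 1443969_at on chromosome 8, read 9.21, 9.41 and 8.38 on wt-/mt- arrays, 10.47, 10.07 and 10.32 on wt-/mt+ arrays, and 10.97, 10.99 and 11.04 on wt+/mt- arrays, against 10.52, 10.74 and 10.62 on wt+/mt+ arrays. The genotypes formed 4 steps without overlap, lowest with no allele, then T24P alone, then both alleles, and highest with the wild-type allele alone. Arrays of wt+/mt- and wt+/mt+ did not overlap for 4 of the 9 tested genes, and those of wt-/mt+ and wt+/mt+ for 3. The share of all tested probe sets with such steps was not computed. Loss of both alleles gave -1.63 against wt+/mt+ (SE 0.23, 95% interval -2.12 to -1.13, adjusted p = 0.00119). The difference of wt-/mt- from wt-/mt+ was -1.28 (SE 0.23, adjusted p = 0.00507), and from wt+/mt- it was -1.998 (SE 0.24, adjusted p = 0.000893). Neither of the inner steps against wt+/mt+ passed, at -0.34 (SE 0.11, adjusted p = 0.246) for wt-/mt+ and 0.37 (SE 0.13, adjusted p = 0.104) for wt+/mt-. The distance between the 2 single-allele genotypes did pass and is given further on.

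Insr encodes the insulin receptor itself. All 3 of its probe sets, on chromosome 8, had means below the 6.20 above which probe sets were tested, at 5.66, 4.31 and 4.25 over the 12 arrays. The brightest, 1450225_at, read 5.51, 5.49 and 5.83 on wt-/mt- arrays, 5.62, 5.55 and 5.73 on wt-/mt+ arrays, and 5.95, 5.67 and 5.87 on wt+/mt- arrays, against 5.43, 5.62 and 5.63 on wt+/mt+ arrays. In a fit without the filter wt-/mt- differed from wt+/mt+ by 0.05 (95% interval -0.27 to 0.37, adjusted p = 0.869). At such low signal a change of the receptor's RNA may not be detectable on this array.

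Sesn1 and Sesn3 encode sestrins, stress-inducible proteins that hold back mTORC1 through the GATOR complexes. The brightest Sesn1 probe set, 1438931_s_at on chromosome 10, read 11.01, 11.15 and 9.24 on wt-/mt- arrays, 12.20, 12.01 and 11.79 on wt-/mt+ arrays, and 11.86, 11.70 and 11.69 on wt+/mt- arrays, against 11.89, 12.14 and 12.06 on wt+/mt+ arrays. The third wt-/mt- array was far lower than the other two, and the genotype still lay wholly below the rest. Its difference from wt+/mt+ was -1.56 (SE 0.32, adjusted p = 0.00971), and without that array it was -0.95 (adjusted p = 0.024), so its size rests in part on 1 array. Against wt-/mt+ it was -1.53 (SE 0.32, adjusted p = 0.0113), or -0.92 (adjusted p = 0.0272) without that array. Against wt+/mt- it was -1.28 (SE 0.33) and did not pass (adjusted p = 0.0531), and without that array -0.67 (adjusted p = 0.16).

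The other 3 Sesn1 probe sets fell too after loss of both alleles, by 1.55, 1.71 and 1.07 on the log2 scale, and all 3 were also called against wt+/mt-, at -1.43, -1.41 and -1.04. Among genotypes with an allele no Sesn1 probe set was called, with differences of the brightest of -0.28 (95% interval -0.67 to 0.11) for wt+/mt- and -0.03 (-0.37 to 0.31) for wt-/mt+, both against wt+/mt+.

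Sesn3 did not follow Sesn1. Its brightest probe set, 1449303_at on chromosome 9, read 10.08, 9.33 and 10.36 on wt-/mt- arrays, 9.93, 10.03 and 9.89 on wt-/mt+ arrays, and 9.82, 9.48 and 9.68 on wt+/mt- arrays, against 9.66, 9.85 and 9.79 on wt+/mt+ arrays. The wt-/mt- arrays spread around all the others, 2 of them above every array of wt+/mt- and wt+/mt+ and 1 below. The difference from wt+/mt+ was 0.16 (SE 0.21, 95% interval -0.31 to 0.62, adjusted p = 0.691). The second probe set, 1453313_at, gave 0.74 (SE 0.27, 95% interval 0.15 to 1.32), which did not pass after adjustment (adjusted p = 0.113). The third sestrin, Sesn2, no member of the 10, differed by -0.08 (SE 0.26, adjusted p = 0.879).

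Rictor encodes the subunit that defines mTORC2, the complex that phosphorylates AKT. The brightest of its 5 probe sets, 1435698_at on chromosome 15, read 8.63, 8.60 and 8.10 on wt-/mt- arrays, 9.05, 9.10 and 9.07 on wt-/mt+ arrays, and 9.03, 9.02 and 8.96 on wt+/mt- arrays, against 8.99, 8.99 and 9.13 on wt+/mt+ arrays. The 9 arrays with an allele lay within a narrow band, and the 3 without lay below it. Loss of both alleles gave -0.59 (SE 0.16, adjusted p = 0.0421) against wt+/mt+ and -0.63 (SE 0.17, adjusted p = 0.0334) against wt-/mt+, while -0.56 (SE 0.17, adjusted p = 0.0927) against wt+/mt- did not pass. Both calls are marginal. The first was kept in 9 of 21 alternative settings, with adjusted p from 0.0141 to 0.176, and without the third wt-/mt- array it was -0.42 (adjusted p = 0.176). The second was kept in 13 of 21, with adjusted p from 0.0108 to 0.14, and without that array it was -0.46 (adjusted p = 0.14). The other tested probe sets of the gene gave -1.17 (adjusted p = 0.0648), 0.27 and -0.33, none called, and the dimmest, at a mean of 4.62, was not tested.

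Txnip encodes an alpha-arrestin that binds thioredoxin and removes glucose transporters from the cell surface. Its brightest probe set, 1415996_at on chromosome 3, read 11.39, 11.81 and 10.60 on wt-/mt- arrays, 10.96, 11.42 and 11.04 on wt-/mt+ arrays, and 11.67, 11.63 and 11.41 on wt+/mt- arrays, against 11.38, 11.57 and 11.51 on wt+/mt+ arrays. The genotypes overlapped, and the wt-/mt- arrays covered a wider range than all others together. The difference of wt-/mt- from wt+/mt+ was -0.22 (SE 0.26, 95% interval -0.77 to 0.33, adjusted p = 0.638). Without the third wt-/mt- array it was 0.12 (log2), so that its sign turns on 1 array. The second probe set gave -0.58 (95% interval -1.28 to 0.11). With T24P alone Txnip differed from wt+/mt+ by -0.34 (SE 0.13), with adjusted p = 0.279.

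Trp53inp1 encodes a p53-inducible protein that promotes autophagy and cell death. Its brightest probe set, 1416926_at on chromosome 4, read 9.92, 10.12 and 8.98 on wt-/mt- arrays, 12.67, 12.49 and 12.34 on wt-/mt+ arrays, and 11.88, 11.81 and 12.03 on wt+/mt- arrays, against 12.48, 12.42 and 12.46 on wt+/mt+ arrays. Arrays with T24P were the highest whether or not the wild-type allele was present, those with the wild-type allele alone lay between, and those with neither were lowest. Loss of both alleles gave -2.78 (SE 0.21, 95% interval -3.24 to -2.32, adjusted p = 2.4e-05) against wt+/mt+. It was -2.83 (SE 0.22, adjusted p = 1.98e-05) against wt-/mt+ and -2.23 (SE 0.22, adjusted p = 0.000266) against wt+/mt-. The other probe set, 1416927_at, lay just inside the level required for testing, at a mean of 6.202 (log2) against 6.201, and gave -0.26 (SE 0.19, adjusted p = 0.407), so the fall is that of 1 probe set.

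Cited2, a transcriptional coregulator that competes with HIF factors for shared coactivators, and Klf6, a zinc finger transcription factor, shared a pattern over the wt-/mt- arrays. The brightest Cited2 probe set, 1452207_at on chromosome 10, read 11.74, 12.61 and 11.53 on wt-/mt- arrays, 12.44, 12.52 and 12.31 on wt-/mt+ arrays, and 12.38, 12.49 and 12.50 on wt+/mt- arrays, against 12.43, 12.45 and 12.51 on wt+/mt+ arrays. That of Klf6, 1433508_at on chromosome 13, read 8.88, 9.62 and 8.50 on wt-/mt- arrays, 9.59, 9.57 and 9.45 on wt-/mt+ arrays, and 9.42, 9.43 and 9.58 on wt+/mt- arrays, against 9.54, 9.56 and 9.63 on wt+/mt+ arrays. For both genes replicates 1 and 3 of wt-/mt- were below every other array, while replicate 2 was as high as the genotypes with an allele, or higher. The differences of wt-/mt- from wt+/mt+ were -0.50 (SE 0.18, 95% interval -0.90 to -0.10, adjusted p = 0.112) for Cited2 and -0.58 (SE 0.20, 95% interval -1.01 to -0.14, adjusted p = 0.0964) for Klf6.

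Without the second wt-/mt- array both passed, at -0.83 (adjusted p = 0.0204) for Cited2 and -0.89 (adjusted p = 0.0372) for Klf6, so these calls depend on that array. The second Cited2 probe set gave -0.46 and the other 4 of Klf6 -0.77, -0.29, -1.03 and -0.39, none called. Against wt+/mt+, the brightest probe sets differed by -0.04 (Cited2) and -0.04 (Klf6) in wt-/mt+ and by -0.01 (Cited2) and -0.10 (Klf6) in wt+/mt-.

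The order of the wt-/mt- arrays was shared widely among the 10 genes. The third array was the lowest of the genotype for 8 of them and the second the highest for 7, with spans from 0.34 (Insr) to 1.91 (Sesn1) between highest and lowest. Insr, below the level required for testing, is counted among the 10. The share of all tested probe sets with this order was not computed, so the order cannot be called particular to these genes. The median deviation of the 10 genes from their wt+/mt+ means was -0.71, -0.44 and -1.01 on the 3 wt-/mt- arrays, and between -0.14 and 0.06 on the other 9, while the same median over all tested probe sets stayed between -0.05 and 0.04. The SD of the tested members' probe sets in wt-/mt- had a median of 0.57, against 0.10 in wt+/mt+.

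**Figure D2:**
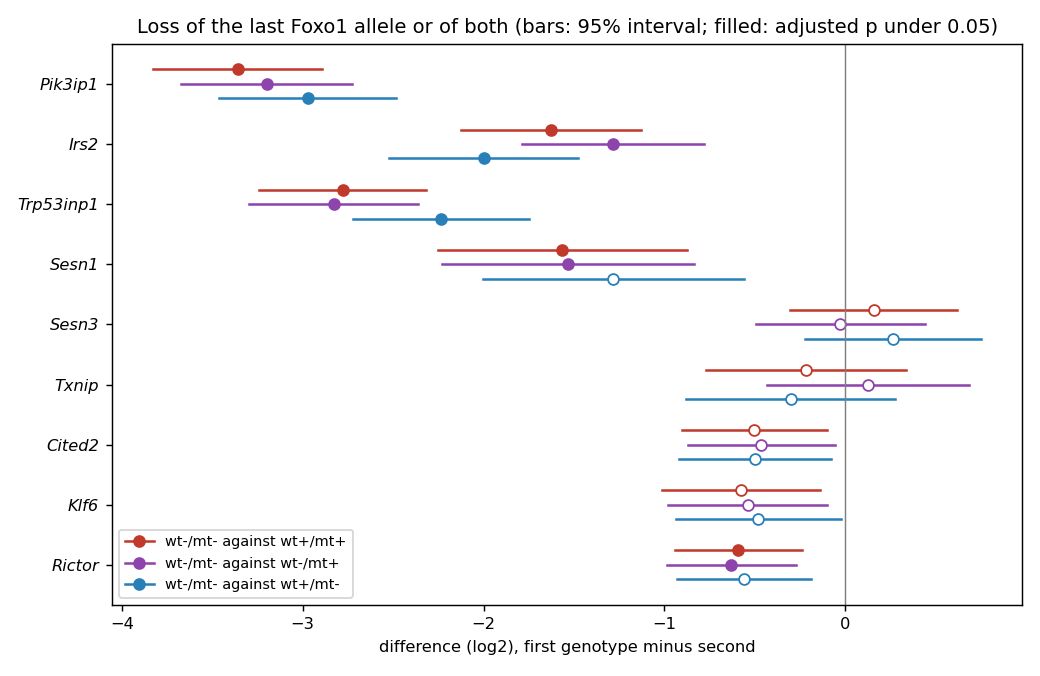
Difference in level (log2, x axis) between wt-/mt- and each other genotype for the 9 tested genes, with 95% intervals of the fit and filled points where the limma adjusted p was under 0.05. Pik3ip1 and Trp53inp1 lie between -3.36 and -2.23 in all 3 comparisons, which share the wt-/mt- arrays, and the intervals of Sesn3 and Txnip span 0.

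Removal of the last allele was compared in both backgrounds. Against wt-/mt+, which tests loss of T24P as the sole allele, 5 of the 9 genes were called lower (Pik3ip1, Irs2, Trp53inp1, Sesn1 and Rictor) and 0 higher, beside 5.75% of tested probe sets called lower. Against wt+/mt-, which tests loss of the wild-type allele as the sole allele, Pik3ip1, Irs2 and Trp53inp1 were called lower, 3 of the 9, and 0 higher, beside 2.91% of tested probe sets. The calls of that comparison in both directions, 851 in all, numbered 367 without replicate 2 of wt+/mt- and 1759 without its replicate 3. In each of these comparisons 7 of the 9 genes had an unadjusted p under 0.05. Of all 22518 tested probe sets 5335 did against wt-/mt+ and 4318 against wt+/mt-. Sesn1 and Rictor are the 2 genes that were called against wt-/mt+ and not against wt+/mt-, and the difference between those contrasts is the comparison of the single-allele genotypes, in which neither was called (Sesn1 0.25, adjusted p = 0.427; Rictor 0.07, adjusted p = 0.681). These comparisons share the wt-/mt- arrays, so their values are not independent of each other.

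**Figure D3:**
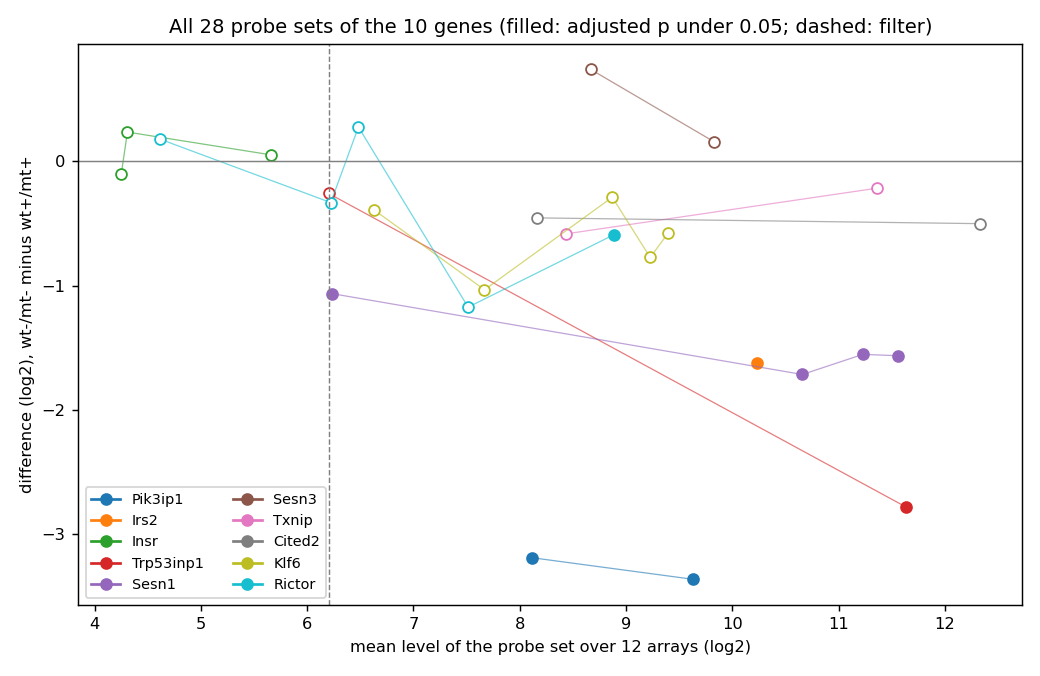
Difference of wt-/mt- from wt+/mt+ (log2, y axis) for all 28 probe sets of the 10 genes against the mean level of the probe set over 12 arrays (log2, x axis), lines joining probe sets of a gene and filled points marking a limma adjusted p under 0.05. Of the 24 probe sets to the right of the dashed line at 6.20, 9 were called lower and 0 higher, and all called ones belong to Pik3ip1, Irs2, Trp53inp1, Sesn1 and Rictor.

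Loss of an allele with the other kept moved few of the 10 genes. In wt-/mt+ against wt+/mt+ limma called 0 of the 9 genes, 2 of them, Irs2 and Txnip, had an unadjusted p under 0.05, and 0.102% of all tested probe sets were called in either direction. An unadjusted p under 0.05 was found there for 3125 of the 22518 tested probe sets. In wt+/mt- against wt+/mt+ Trp53inp1 was the only one of the 9 called, at 11.91 ± 0.11 in wt+/mt-, against 12.45 ± 0.03 in wt+/mt+ (SD, n = 3 each), a difference of -0.55 (SE 0.12, adjusted p = 0.025), beside 2.93% of tested probe sets called lower. That call was kept in 14 of 21 alternatives, and without the 2 wt+/mt- arrays of high actin ratio the difference was -0.42 (adjusted p = 0.221). With them removed, the 1 wt+/mt- array left was assumed to vary like those of wt-/mt+, so that p rests on the spread of the other genotypes. With all arrays kept, the other Trp53inp1 probe set, 1416927_at, gave -0.03 (adjusted p = 0.887), so the Trp53inp1 call is that of 1 probe set. This comparison too crosses the T24P allele, so loss of that allele cannot be told apart from the different spike signals. In wt-/mt+ against wt+/mt+ the 95% intervals of Irs2 (-0.59 to -0.09) and Txnip (-0.62 to -0.07) lay below 0 before adjustment over all probe sets. That of Sesn1 ran from -0.37 to 0.31, and those of Cited2 (-0.24 to 0.16), Klf6 (-0.25 to 0.18) and Rictor (-0.14 to 0.22) were among the narrower ones.

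T24P alone was then set against the wild-type allele alone, which asks how the substituted protein differs as the sole form. Of the 9 genes Irs2 was called lower and Trp53inp1 higher in wt-/mt+ than in wt+/mt-, beside 3.1% of tested probe sets called lower and 3.37% called higher. Irs2 averaged 10.28 ± 0.20 with T24P alone (wt-/mt+) and 11.00 ± 0.03 with the wild-type allele alone (wt+/mt-) (SD, n = 3 each), a difference of -0.72 (SE 0.14, 95% interval -1.01 to -0.42, adjusted p = 0.0146), or 1.64-fold lower with T24P. Trp53inp1 averaged 12.50 ± 0.16 on wt-/mt+ arrays and 11.91 ± 0.11 on wt+/mt- arrays (SD, n = 3 each), a difference of 0.59 (SE 0.13, 95% interval 0.32 to 0.87, adjusted p = 0.0214), or 1.51-fold higher with T24P. For both genes the arrays of these genotypes did not overlap, which held for 4 of the 9 genes, the uncalled Sesn3 and Rictor among them. The share of all tested probe sets without overlap was not computed for this comparison. The other Trp53inp1 probe set, 1416927_at, gave 0.25 (adjusted p = 0.168), with arrays that overlapped. Irs2 and Trp53inp1 thus differed in opposite directions between these 2 genotypes, although both were lowest in wt-/mt-. The comparison crosses the T24P allele, and a genotype may be 1 clone. The form of the protein therefore cannot be told apart from the different spike signals or from a difference between clones.

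Both of these differences rest on wt+/mt- arrays of which 2 had high actin ratios. Without those 2, the difference of Irs2 was -0.75 (adjusted p = 0.132) and that of Trp53inp1 0.47 (adjusted p = 0.262), and without the second wt+/mt- array alone they were -0.72 (adjusted p = 0.183) and 0.55 (adjusted p = 0.232). In the first of these settings the lone wt+/mt- array was again given the weight of wt-/mt+, so its p-values hold no spread of wt+/mt- itself. The Trp53inp1 call was also lost without other single arrays, at 0.51 (adjusted p = 0.0634) without replicate 1 and 0.60 (adjusted p = 0.0539) without replicate 2 of wt-/mt+, and 0.58 (adjusted p = 0.064) without replicate 1 of wt+/mt-. With 1 shared spread for all genotypes both calls were lost (adjusted p = 0.171 for Irs2 and 0.251 for Trp53inp1), and both directions stayed in all of these settings. Over 21 alternatives the adjusted p ran from 0.00805 to 0.183 for Irs2 and from 0.00903 to 0.262 for Trp53inp1. Txnip came next in this comparison, at -0.43 (SE 0.15, 95% interval -0.76 to -0.10, adjusted p = 0.0992), and Pik3ip1 at 0.23 (95% interval -0.05 to 0.50, adjusted p = 0.277).

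**Figure D4:**
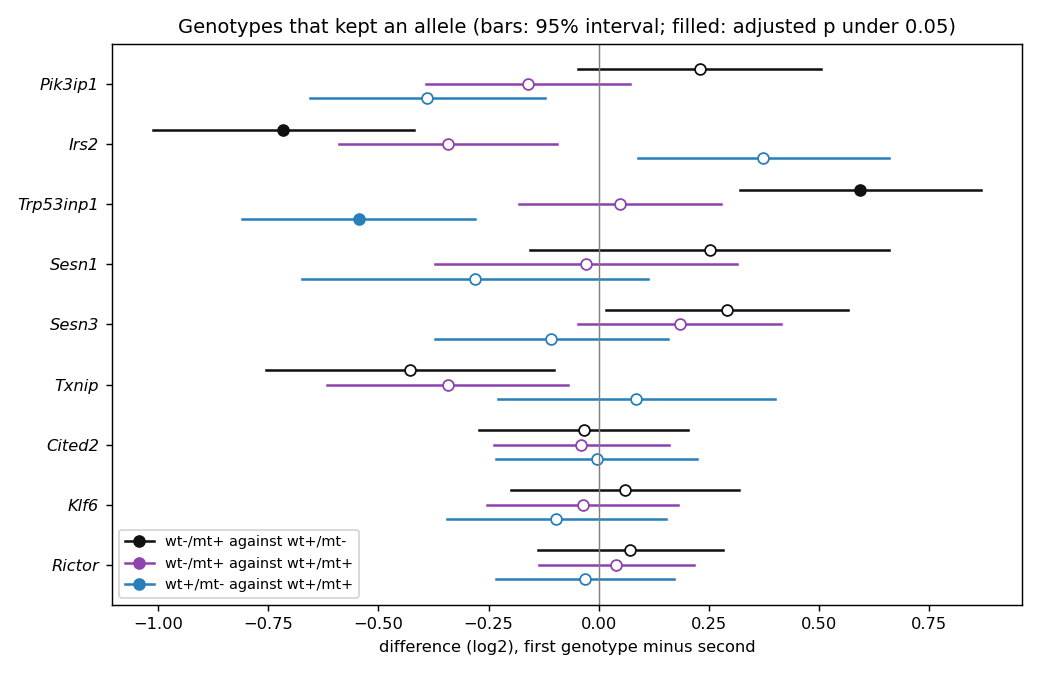
Difference in level (log2, x axis) among the genotypes that kept an allele for the 9 tested genes, with 95% intervals of the fit and filled points where the limma adjusted p was under 0.05. Irs2 (-0.72) and Trp53inp1 (0.59) are the filled points of wt-/mt+ against wt+/mt-, and Trp53inp1 (-0.55) that of wt+/mt- against wt+/mt+, while Cited2, Klf6 and Rictor lie close to 0.

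The interaction of both losses measures how much further a gene changed when an allele was lost with the other already absent than when it was lost with the other present. Pik3ip1 (-2.81, SE 0.25, adjusted p = 0.000204), Trp53inp1 (-2.28, SE 0.25, adjusted p = 0.000637) and Irs2 (-1.66, SE 0.27, adjusted p = 0.00629) were called lower, 3 of the 9 genes, with 0 higher and beside 2.3% of tested probe sets called lower. The brightest Sesn1 probe set gave -1.25 (SE 0.37) and did not pass (adjusted p = 0.0943), while 1433711_s_at and 1454699_at gave -1.51 and -1.52 and did. Neither the last Sesn1 probe set, 1444376_at (-0.93, adjusted p = 0.118), nor the other one of Trp53inp1, 1416927_at (-0.45, adjusted p = 0.313), passed. In the direct comparisons the brightest probe sets of Pik3ip1, Trp53inp1 and Irs2 were also called lower in wt-/mt- than with a single allele of either form. The other Trp53inp1 probe set was not called there, at -0.48 against wt-/mt+ (limma adjusted p = 0.14) and -0.23 against wt+/mt- (adjusted p = 0.602). For Pik3ip1 the single losses gave -0.16 (wt-/mt+) and -0.39 (wt+/mt-) against wt+/mt+, and the joint loss -3.36. The interaction calls of Pik3ip1, Trp53inp1 and Irs2 were kept in 21 of 21 alternatives.

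Genes of the same pathways that are not among the 10 were read from lists, each gene by its brightest probe set. Among receptors, adaptors, PI3K subunits, lipid phosphatases and AKT kinases, 2 of 23 tested were called lower after loss of both alleles and 0 higher, where 5.8% of all tested probe sets were called lower and 2.51% higher, so the share is near that of the array. They were Inppl1, which encodes the lipid phosphatase SHIP2 (-1.33, SE 0.30), and Pik3cd, the catalytic delta subunit of lymphocytes (-0.66, SE 0.17), and the median of the list was -0.25. In wt-/mt+ against wt+/mt- 2 of the 23 were lower and 2 higher, among them the regulatory subunits Pik3r2 (-0.71) and Pik3r6 (0.95), beside 3.1% and 3.37% of all tested probe sets. The calls over all probe sets in that comparison, 1456 in all, numbered 15 without replicate 2 of wt+/mt- and 58 without its 2 arrays of high actin ratio, and this holds for each count of that comparison in the lists below. Of 17 genes of the mTOR complexes and their targets, Ulk1, the kinase that starts autophagy, was called lower after loss of both alleles (-0.91, SE 0.19), 0 were higher, and the median was 0.10. That share too is near the 5.8% of all tested probe sets called lower. Ulk1 was higher (0.65) and Rptor, the defining subunit of mTORC1, lower (-0.40) with T24P alone than with the wild-type allele alone.

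No call was made among partners of the sestrins after loss of both alleles, although single differences were as large as that of Rictor. Of 29 tested genes of the GATOR, Rag, Ragulator and AMPK complexes, with Sesn2, limma called 0, and 5 had an unadjusted p under 0.05, with differences of -1.14 to 0.63 and a median of -0.12. Of all 22518 tested probe sets 5668 had such a p. In wt-/mt+ against wt+/mt- 1 was lower and 2 higher, among them Castor1, an arginine sensor (-0.51), and Rraga, a Rag GTPase (0.55). Of all tested probe sets 3.1% were called lower there and 3.37% higher. Of 15 genes of the thioredoxin system, alpha-arrestins, glucose transporters, hexokinases and Mondo factors around Txnip, 0 were lower and 3 higher after loss of both alleles. These were Hk1, a hexokinase (1.36, SE 0.30), Txnrd1, a thioredoxin reductase (1.22, SE 0.26), and Txn1, the thioredoxin that Txnip binds (0.49, SE 0.08), beside 2.51% of tested probe sets called higher, and the median was 0.11. Slc2a3, a glucose transporter, was lower (-0.57) in wt-/mt+ than in wt+/mt-. Of 13 stress and partner factors, Trp53inp2, the paralog of Trp53inp1 (-1.03, SE 0.16), and Klf13, another KLF factor (-0.69, SE 0.18), were lower and 0 higher after loss of both alleles, with a median of -0.23. Of all tested probe sets 5.8% were called lower in that comparison and 2.51% higher.

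Genes listed as FOXO targets outside the 10 gave 7 of 20 called lower and 0 higher after loss of both alleles, beside 5.8% and 2.51% of all tested probe sets, with a median of -0.49. The largest falls among them were those of Bach2, a B cell transcriptional repressor (-4.41, SE 0.37), Cxcr4, the chemokine receptor of the dark zone (-3.69, SE 0.38), Bmf, a pro-apoptotic BCL2 family member (-3.10, SE 0.27), and S1pr1, a receptor for lymphocyte egress (-1.49, SE 0.30). Differences over the list ran from -4.41 to 1.73. The highest was that of Ccnd2, which read 6.01, 12.23 and 6.89 on wt-/mt- arrays. Neither Ccnd2 nor Cdkn1b (0.65) was called. In wt-/mt+ against wt+/mt- 1 of the 20 was lower, S1pr1 (-0.88), and 3 were higher, among them Gadd45a, a stress-inducible gene (0.68). Of all tested probe sets 3.1% were called lower in that comparison and 3.37% higher. No test compared the lists with each other or with the 10 genes. All of these lists were chosen with earlier results of these data known, so their counts are a description and no independent support.

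**Figure D5:**
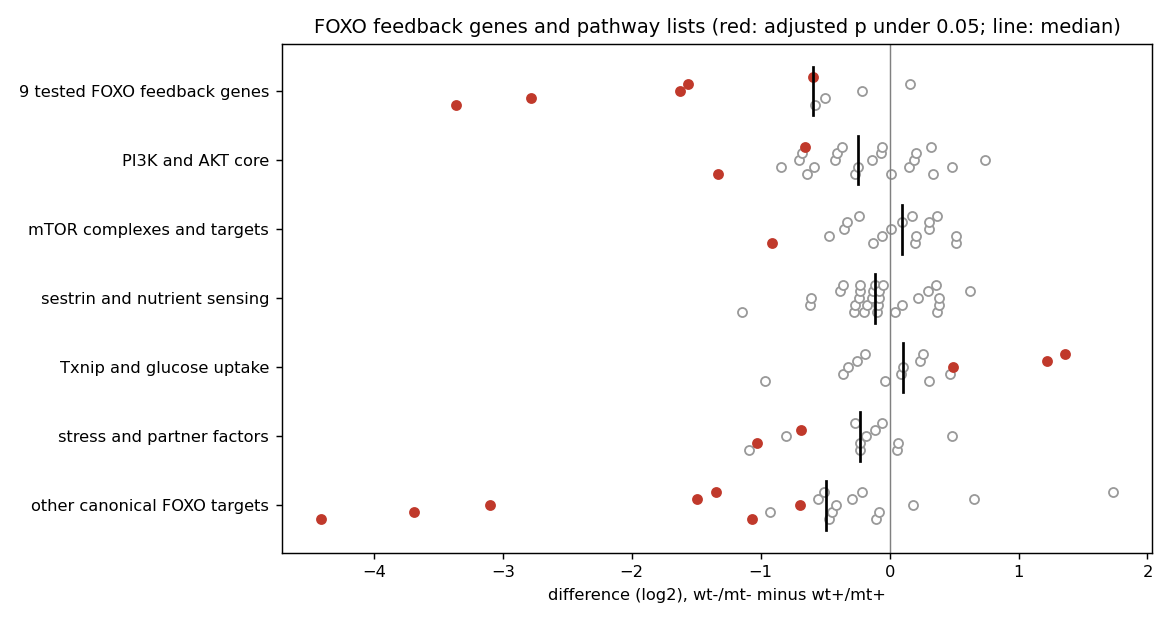
Difference of wt-/mt- from wt+/mt+ (log2, x axis) for the 9 tested FOXO feedback genes and for 6 lists of pathway genes (y axis), 1 point per gene, red where the limma adjusted p was under 0.05, with a black line at the median of each list. Red points lie to the left of 0 except in the list around Txnip, where Hk1, Txnrd1 and Txn1 lie between 0.49 and 1.36, and 0 points of the sestrin list are red.

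Pik3ip1 had the widest range of genotype means of the 10 genes, 3.36 (log2), and the genes whose levels followed it most closely over the 12 arrays were Maf (Pearson r = 0.993), B3gnt5, Bmf and Zbtb18 (0.988 each) and Serinc3 (0.986). Trp53inp1, the gene highest with T24P alone relative to the wild-type allele alone, was followed by Bach2 (0.994), H2-Ob (0.994), Csrnp1 (0.989), Mndal (0.987) and Pim1 (0.986). Bach2 averaged 7.26 on wt-/mt- arrays, 11.78 on wt-/mt+ arrays and 11.08 on wt+/mt- arrays, against 11.67 on wt+/mt+ arrays, with the same order of genotypes as Trp53inp1. Such correlations are a description, since 3 arrays of a genotype set apart from 9 others raise r for any gene that differs between them.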

How the data were processed

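Total RNA of BL#19 cells was read on 12 Affymetrix mouse arrays, 1 per sample. The authors deposited 1 log2 expression level for each probe set and array, made with RMA per the submitters' processing notes, in which no version is given. Over the 12 arrays they ran from 3.09 to 15.57, with array medians of 6.08 to 6.25, and no 2 arrays were identical. Scanner files were not used here, so signal over background per probe set is not known, and the number of arrays limits the precision.

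Probe sets were named from the platform annotation, with symbols checked against RefSeq on GRCm38.p6: 34958 of 45101 had 1 gene, 932 several and 9211 none. The 22518 probe sets with a mean above 6.201 over the 12 arrays, the median of all but the 64 controls, entered limma (version 3.58.1, under R 4.3.3). The model had 1 mean and 1 array weight per genotype (0.261 for wt-/mt-, 1.70 for wt-/mt+, 1.08 for wt+/mt- and 2.09 for wt+/mt+) and a variance trend on level, and p-values were adjusted over all tested probe sets by Benjamini-Hochberg. A gene was read by its brightest probe set, and probe sets whose names end in _s_at, _a_at or _x_at may share probes between transcripts. The code was tested on simulated data.

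The 10 genes, the pathway lists and the tests were chosen with earlier results of these data known. Named list genes are up to 4 called genes with the largest change after loss of both alleles and up to 2 in wt-/mt+ against wt+/mt-, and Sesn2, Foxo1 and its paralogs in any case. Likeness is the highest Pearson r to the gene with the widest genotype range and to the one highest in wt-/mt+ relative to wt+/mt-. Alternatives changed the spread estimate, trend, filter, unit of test and scaling, left out arrays, or used an exact permutation test.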

Additional observations from a re-analysis of the deposited data

Results flagged for a closer look

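For 4 genes the loss of an allele had a different size depending on whether the other allele was present, by limma's interaction term over the 12 arrays (wt-/mt- minus wt-/mt+ minus wt+/mt- plus wt+/mt+, log2). The term was -2.81 for the brightest and -2.289 for the second probe set of Pik3ip1 (1428332_at and 1439087_a_at), -2.283 for Trp53inp1 (1416926_at) and -1.656 for Irs2 (1443969_at). For Sesn1 it was -1.507 (1433711_s_at) and -1.516 (1454699_at), with adjusted p of 0.0203 and 0.0359, while its brightest probe set gave -1.25 (adjusted p = 0.0943) and 1444376_at -0.93 (adjusted p = 0.118). The other Trp53inp1 probe set, 1416927_at, gave -0.45 (adjusted p = 0.313), so the term of that gene is that of 1 probe set. Without the 2 wt+/mt- arrays of high actin ratio the term was -2.90 for Pik3ip1, -2.41 for Trp53inp1 and -1.69 for Irs2, so the sizes were as large without them, with 1 wt+/mt- array left and its spread taken from wt-/mt+. The wider spread of wt-/mt- enters each term, and its part was not tested beyond the settings given for those arrays.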

How the results depend on the processing

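The calls of Pik3ip1, Irs2, Trp53inp1 and Sesn1 after loss of both alleles held in 21 of 21 alternatives, with log2 differences of -3.65 to -3.08, -1.83 to -1.32, -3.00 to -2.43 and -1.91 to -0.95 (the smallest for Sesn1 without the third wt-/mt- array), while Rictor's held in 9 of 21 (-0.68 to -0.42). Limma with 1 shared spread called 0 of the 9 genes in wt+/mt- against wt+/mt+ (1 in the reported fit), 5 in wt-/mt- against wt+/mt- (3), and 0 in wt-/mt+ against wt+/mt- (2). Without the wt+/mt- arrays of high actin ratio 0 were called in the first and 0 in the last of these. There the lone wt+/mt- array was assumed to vary like wt-/mt+. The first also gave 0 with no filter, and 2 with arrays centred on the median or per chromosome. Leaving out 1 array in turn gave 0 to 2, 3 to 5 and 0 to 3 in the same order. The exact two-sided permutation test of 3 against 3 arrays cannot go below 0.10 and called 0 genes in each comparison. The cause of these shifts was not tested.

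Some uncalled differences near 0 changed sign; the cause was not tested. Sesn3, wt-/mt- against wt-/mt+ was 0.033 with quantile normalization and 0.076 centred per chromosome. Cited2, wt+/mt- against wt+/mt+ was 0.063 with quantile normalization and 0.042 without the arrays of high actin ratio, and without those arrays Txnip, wt+/mt- against wt+/mt+ was -0.079, Klf6, wt+/mt- against wt+/mt+ 0.005 and Klf6, wt-/mt+ against wt+/mt- -0.041. Cited2, wt-/mt+ against wt+/mt- was 0.014 with median centring, and Klf6, wt-/mt+ against wt+/mt- was -0.008 centred per chromosome. Leaving out 1 array gave ranges of -0.247 to 0.272 for Sesn3, wt-/mt- against wt-/mt+, -0.064 to 0.456 for Sesn3, wt-/mt- against wt+/mt+, -0.139 to 0.38 for Sesn3, interaction of both losses, -0.489 to 0.115 for Txnip, wt-/mt- against wt+/mt+, -0.145 to 0.458 for Txnip, wt-/mt- against wt-/mt+, -0.574 to 0.029 for Txnip, wt-/mt- against wt+/mt-, -0.231 to 0.373 for Txnip, interaction of both losses, -0.029 to 0.034 for Cited2, wt+/mt- against wt+/mt+, -0.083 to 0.021 for Cited2, wt-/mt+ against wt+/mt-, -0.089 to 0.016 for Cited2, wt-/mt+ against wt+/mt+, -0.035 to 0.127 for Trp53inp1, wt-/mt+ against wt+/mt+, -0.13 to 0.076 for Sesn1, wt-/mt+ against wt+/mt+, -0.064 to 0.007 for Klf6, wt-/mt+ against wt+/mt+ and -0.055 to 0.015 for Rictor, wt+/mt- against wt+/mt+.

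Counts over all probe sets moved more. The shared spread called 4742 after loss of both alleles against wt+/mt+ (1870 in the reported fit), 4344 against wt-/mt+ (1822), 3024 against wt+/mt- (851), 44 in wt+/mt- against wt+/mt+ (1437), 0 in wt-/mt+ against wt+/mt+ (23) and 8 in wt-/mt+ against wt+/mt- (1456). With no filter the first 2 of these were 3215 and 2817, and wt-/mt+ against wt+/mt+ gave 14, or 37 with quantile normalization. Adjusting over 1 probe set per gene gave 879, 937, 447 and 809 for the first 4, 837 for the last and 396 for the interaction (661). Without the 2 wt+/mt- arrays of high actin ratio 414 were called in wt-/mt- against wt+/mt-, 153 in wt+/mt- against wt+/mt+, 54 in wt-/mt+ against wt+/mt+, 58 in wt-/mt+ against wt+/mt- and 384 in the interaction. Leaving out 1 array gave 755 (without wt-/mt- replicate 2) to 2219 after loss of both alleles against wt+/mt+, 862 (without the same array) to 1865 against wt-/mt+ and 6 (without wt+/mt+ replicate 2) to 52 in wt-/mt+ against wt+/mt+. It gave 26 to 2507 in wt+/mt- against wt+/mt+, 367 to 1759 in wt-/mt- against wt+/mt-, 15 to 3509 in wt-/mt+ against wt+/mt- and 322 to 913 in the interaction, each lowest without replicate 2 and highest without replicate 3 of wt+/mt-. Centring on the median gave 396 higher and 1756 lower after loss of both alleles (565 and 1305), 464 and 1223 in wt+/mt- against wt+/mt+ (777 and 660), 4 and 29 in wt-/mt+ against wt+/mt+ (6 and 17) and 1028 and 524 in wt-/mt+ against wt+/mt- (758 and 698). Centring per chromosome gave 811 higher and 1122 lower in wt-/mt- against wt-/mt+ (527 and 1295), and 3 and 24 in wt-/mt+ against wt+/mt+.

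Replicate numbers are not shared between genotypes in the labels, whose numbers run through all samples. No paired analysis was possible because of this. Depth in the sense of signal over background is not known here, and no change of Insr was detected at its low signal.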
